A study of Drosophila melanogaster with 2 samples.

Results

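The genes of the Mediator complex, 29 of 13945 protein-coding genes in the Ensembl annotation of the chromosome arms, were followed through a map of binding sites of woc in Drosophila melanogaster. They were chosen by name: every protein-coding gene whose symbol is MED followed by a number, plus kto, skd, Cdk8 and CycC, which encode the kinase module. woc (without children) is a zinc finger protein. Whole wandering third-instar larvae, which have left the food and are about to pupariate, were collected from 1 fly line that carries woc joined at its C terminus to enhanced green fluorescent protein (eGFP). Sonicated chromatin of males and females together went into the immunoprecipitation, which the labels give as done with anti-GFP. There was 1 group of 2 libraries, biological replicates 1 and 3, and no second genotype, stage or treatment. Whether the line also carried untagged woc is not stated in the labels, and a whole larva mixes all tissues, so a peak in few cells and a weak peak in many cannot be told apart. The libraries' read totals were not used here, so the depth behind a peak is unknown.

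Mediator is a large protein assembly that stands between DNA-bound transcription factors and RNA polymerase II. Its head and middle modules contact the polymerase and the general initiation factors, its tail is contacted by many activators, MED14 runs through it as a scaffold, and a kinase module of Cdk8, cyclin C, kto (Med12) and skd (Med13) docks reversibly. In flies kto and skd are known from their requirement in patterning of the eye and wing, and most core subunits are required in all cells. Genes used in all cells often have promoters without a strong TATA box and with short elements such as the DRE, the site of the factor DREF, and the element called Ohler motif 1.

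woc-eGFP peaks lay at the promoters of 14 Mediator genes (48.3%), against 3058 of all 13945 protein-coding genes (21.9%). A gene is called bound here where a summit of the authors' optimal peak list lay within 500 bp of a transcription start site (TSS) of one of its protein-coding transcripts, and its score is the highest signal of such a summit, as the authors' peak caller gave it. The optimal list on the genome build dm6 held 6636 peaks, which were the peaks of highest signal in the list for both libraries pooled. The bound genes were MED6, MED8 and MED17 of 7 head genes (42.9%), MED1, MED4, MED7, MED19, MED21, MED26 and MED31 of 9 middle genes (77.8%), MED23, MED27 and MED30 of 8 tail genes (37.5%), and skd of 4 kinase module genes (25.0%). MED14, the scaffold, was not bound. Of the 15 unbound genes, MED11, MED15 and Cdk8 had a score from the relaxed pooled list instead, as did 2311 of all 13945 genes (16.6%), and 12 had none: MED9, MED10, MED14, MED16, MED18, MED20, MED22, MED24, MED25, MED28, kto and CycC. These counts describe 1 pooled list, with no test between gene groups, and the modules hold too few genes to set them apart by their counts alone.

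**Figure D1:**
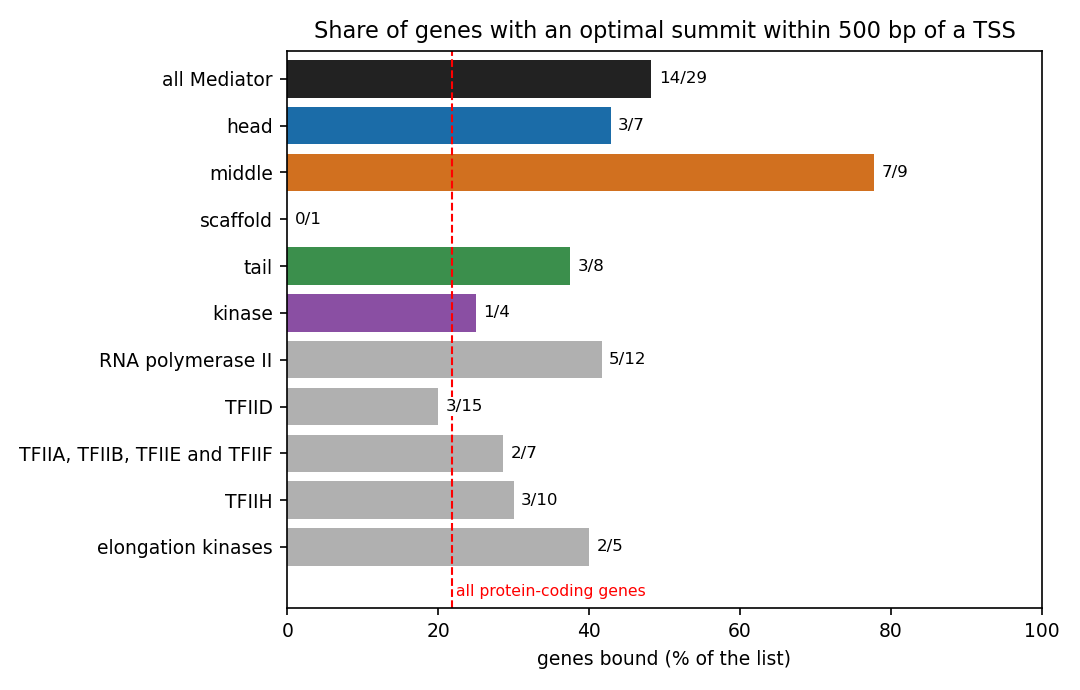
Bars give the percentage of genes bound in all Mediator genes, in each module and in 5 lists of other transcription genes, with the bound and total number of genes beside each bar; the dashed line marks all protein-coding genes (21.9%). The middle module has 7 of 9 genes bound and the scaffold 0 of 1.

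The scores of the bound Mediator genes ran between 109 and 763, with a median of 207, against a median of 238 and quartiles of 157 and 386 over all bound genes. MED27, with 763, was in rank 198 of the optimal list, and 4.28% of bound genes had a higher score. MED7 followed with 517 and MED30 with 473, both above the upper quartile of bound genes. Of the others, skd, MED21 and MED17 stood above the median of bound genes at 357, 328 and 268, and MED6, MED26 and MED31 below it at 215, 198 and 177. Below or next to the lower quartile were MED23 with 157, MED4 with 154, MED1 with 139, MED19 with 113 and MED8 with 109. MED8 and MED19 were the genes just inside the list, whose lowest signal was 99.6. Just outside it in distance was MED15, where an optimal summit of signal 155 lay 588 bp upstream of the TSS. The −log10 q of 11 of the 14 peaks stood at the list's ceiling of 3.94, and those of MED1, MED19 and MED8 were 3.49, 2.67 and 2.54. Over the 17 Mediator genes with any score the median was 177, against 124 over the 5369 scored genes of the annotation. Of these 17 genes 14 were bound, while of the 5369 scored genes 3058 were. The medians thus mix bound and unbound genes in different shares, and the higher Mediator median does not show stronger peaks. Among bound genes alone the Mediator median was the lower, 207 against 238.

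**Figure D2:**
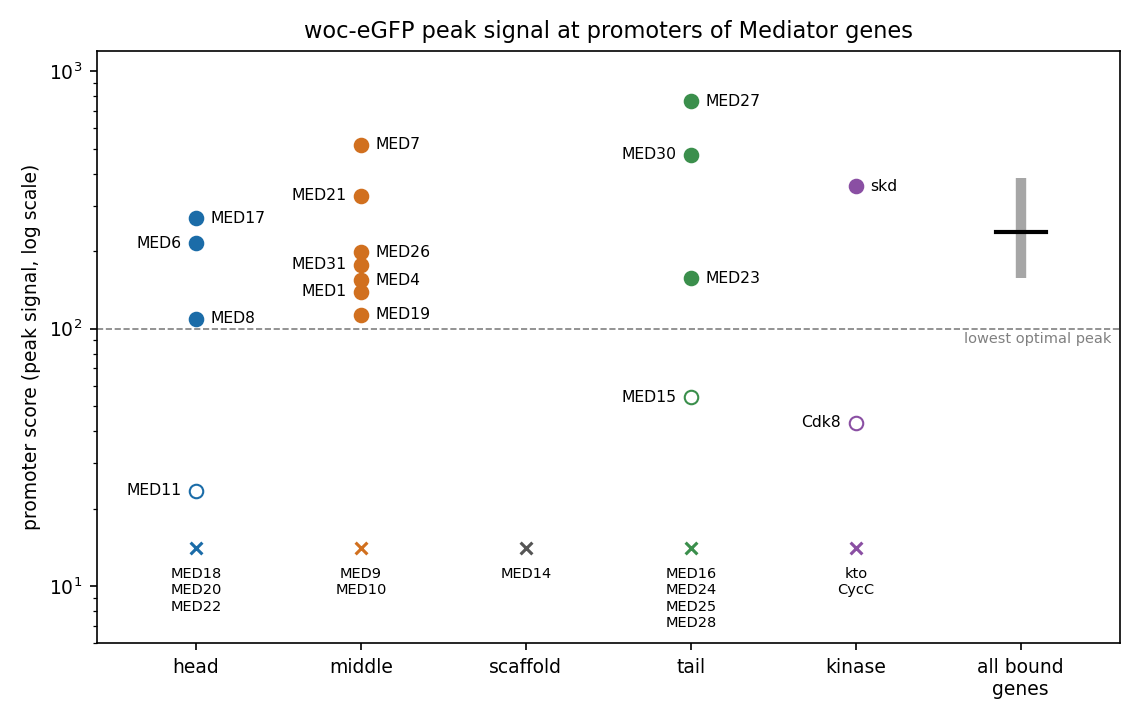
Each point is a Mediator gene, placed by module on the horizontal axis and by its promoter score (peak signal, log scale) on the vertical axis; filled points are optimal peaks, open points pooled relaxed peaks, and crosses mark genes with no summit, whose vertical place carries no value. The grey bar shows the quartiles (157 to 386) and the black line the median (238) of all bound genes, and the dashed line the lowest optimal signal (99.6). MED27 is highest at 763, and the open points of MED15, Cdk8 and MED11 lie at 54.0, 43.0 and 23.5.

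The DNA under the summits of 4 bound genes is shown because MED27 and MED7 carried the strongest peaks, and the windows of MED7, MED17 and MED26 held a DRE. MED8, not shown, also had a DRE within 150 bp of its summit, and its score of 109 was the lowest of the bound genes. The 151 bases are centred on the summit and read along the gene on dm6, with capitals marking matches on either strand to the DRE (TATCGATA), a TATA box (TATAAA) or an E-box (CAGCTG). They come from chr3R:5654893-5655043 (plus strand), chr3R:10761072-10761222 (minus strand), chr3R:18188962-18189112 (plus strand) and chr4:787572-787722 (minus strand).
MED27: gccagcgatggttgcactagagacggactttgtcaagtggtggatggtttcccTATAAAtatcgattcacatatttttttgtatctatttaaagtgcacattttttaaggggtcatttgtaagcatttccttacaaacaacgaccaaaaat
MED7: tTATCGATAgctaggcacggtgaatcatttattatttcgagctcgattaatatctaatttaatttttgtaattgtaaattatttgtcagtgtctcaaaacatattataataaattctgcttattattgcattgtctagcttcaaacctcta
MED17: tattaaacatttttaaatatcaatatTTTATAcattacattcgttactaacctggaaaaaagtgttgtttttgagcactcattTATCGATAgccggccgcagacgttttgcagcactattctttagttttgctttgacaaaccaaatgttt
MED26: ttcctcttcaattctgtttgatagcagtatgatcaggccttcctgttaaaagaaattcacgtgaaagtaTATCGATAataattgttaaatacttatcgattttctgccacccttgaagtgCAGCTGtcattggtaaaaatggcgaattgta
MED7 has its DRE at the upstream end of the window and no TATAAA match. MED17 and MED26 have the DRE closer to the middle. MED27, with the highest score of the 4, has a TATAAA match and no DRE in these bases. That match begins 193 bp upstream of the MED27 TSS. The windows of MED27 and MED7 end upstream of the TSS, so they do not cover the start itself.

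In the head module, MED17, the central subunit on which the head is built, had a signal of 123 in replicate 1 and 163 in replicate 3. These were ranks 1158 and 2387, counted from the highest signal of each library's own list. The lists are not stated to share a scale, so ranks are compared within a library and signals only describe it. MED6, which joins the head to the middle, had 87.9 in replicate 1 (rank 2116) and 124 in replicate 3 (rank 3467). MED8, which holds the MED18 and MED20 pair to the head in yeast, had 72.8 in replicate 1 (rank 2882) and 51.5 in replicate 3 (rank 8622). MED8 thus stood within the top 6636 peaks of replicate 1 and outside them in replicate 3, and its replicate 1 summit lay 159 bp from the optimal summit. MED18 and MED20 themselves, which form the movable jaw, had no summit in either library within 500 bp. MED22 had none either, while its partner MED11 had a weak replicate 1 peak of 26.7 (rank 10555) and a pooled signal of 23.5.

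In the middle module, MED7, which forms the hinge with MED21, had a signal of 224 in replicate 1 (rank 244) and 287 in replicate 3 (rank 919). MED21 had 136 (rank 929) and 195 (rank 1848) in replicates 1 and 3. Both hinge genes were thus bound, MED7 above the upper quartile of bound genes and MED21 above their median. MED26, which recruits elongation factors in mammals, had 70.1 in replicate 1 (rank 3058) and 125 in replicate 3 (rank 3418). MED31, which binds the N terminus of Med7 in yeast, had 60.7 (rank 3780) and 110 (rank 4005) in replicates 1 and 3. MED4, a core subunit of the middle, had 52.1 in replicate 1 (rank 4637) and 105 in replicate 3 (rank 4203). Of these genes, the ranks in the libraries lay closest together for MED26, MED31 and MED4.

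MED1, a contact of nuclear receptors in mammals and of GATA factors in flies, had a signal of 64.6 in replicate 1 (rank 3452) and 79.5 in replicate 3 (rank 5706). MED19, a contact of Hox proteins in flies, had 60.0 in replicate 1 (rank 3830) and 54.3 in replicate 3 (rank 8224). MED19, like MED8, lay outside the top 6636 peaks of replicate 3. The unbound middle genes were MED9 and MED10, whose nearest optimal summits lay 6695 and 3305 bp from their start sites.

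In the tail, MED27 had the highest signal of any Mediator gene in both libraries, 284 in replicate 1 (rank 105) and 471 in replicate 3 (rank 302). Its peak, chr3R:5654763-5655213 on dm6, lay in the intergenic stretch upstream of the gene. MED30, like MED27 a subunit of the animal complex, had 343 in replicate 3 (rank 652) and no overlapping peak in replicate 1. Of the 980 optimal peaks on the arms with a list rank up to 1000, 13 (1.33%) had no peak in replicate 1 and 0 had none in replicate 3. With the top peaks of replicate 1 alone MED30 would not be called bound. MED23, a target of activators downstream of Ras signalling in mammals, had 84.8 in replicate 1 (rank 2268) and 75.2 in replicate 3 (rank 6049).

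The unbound tail genes were MED15, MED16, MED24, MED25 and MED28. MED16 had a replicate 3 peak of signal 148 (rank 2715) with its summit 52 bp upstream of the TSS, and no peak in replicate 1 or the pooled list there. MED25, the contact of the viral activator VP16 in human cells, had a replicate 3 peak of 85.9 (rank 5281), 357 bp upstream. MED15, a binding platform for activators in yeast and animals, had pooled signal 54.0 at 386 bp upstream, with 40.0 in replicate 1 and 30.2 in replicate 3. MED24 and MED28 had no summit within 500 bp in any list. The count of bound tail genes was therefore 5 when replicate 3 was used without replicate 1 (MED16, MED23, MED25, MED27 and MED30), against 3 in the optimal list.

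In the kinase module, skd, a long gene of 34621 bp whose product links the kinase to the core, had a signal of 131 in replicate 1 (rank 1030) and 226 in replicate 3 (rank 1451). Cdk8, the kinase itself, was outside the optimal list although it had a peak near its TSS in both libraries. Its replicate 1 peak had signal 75.5 (rank 2707) with the summit 82 bp upstream, and its replicate 3 peak had 102 (rank 4356) with the summit 59 bp upstream, each at the −log10 q ceiling of its list. In the pooled list the summit closest to the gene was 251 bp upstream, with a signal of 43.0 and a −log10 q of 0.715. Such a site was uncommon: of 4009 top peaks of replicate 1 with a top summit of replicate 3 within 100 bp, 29 (0.723%) had no optimal summit within 200 bp. With either library alone Cdk8 was among the bound genes, so the kinase module count was 2 in place of 1. CycC, the cyclin, and kto had no summit within 500 bp in any list, and the nearest optimal summits lay 4376 and 18574 bp away.

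Of the 14 bound Mediator genes, 13 had a peak in replicate 1 (92.9%) and 14 in replicate 3, against 96.5% and 99.3% of all bound genes. The ratio of signals, replicate 3 over replicate 1, had a median of 1.41 over the 13 genes with both, within a range of 0.708 to 2.02, against a median of 1.69 over all bound genes. It was above 1 for 10 of the 13 genes, the exceptions being MED8, MED19 and MED23, against 2649 of 2931 bound genes with both. The lists are not stated to share a scale, so a ratio above 1 does not mean stronger binding in replicate 3. The ratios are read only beside those of all bound genes. Among these 13 genes MED27 had the highest signal and MED7 the next in each library; MED30, which is not among them, stood between the pair in replicate 3. Spearman's rho between the libraries was 0.786 over the 13 genes, against 0.783 over 2931 bound genes. These are descriptions across genes of the same 2 libraries, with no p-value.

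**Figure D3:**
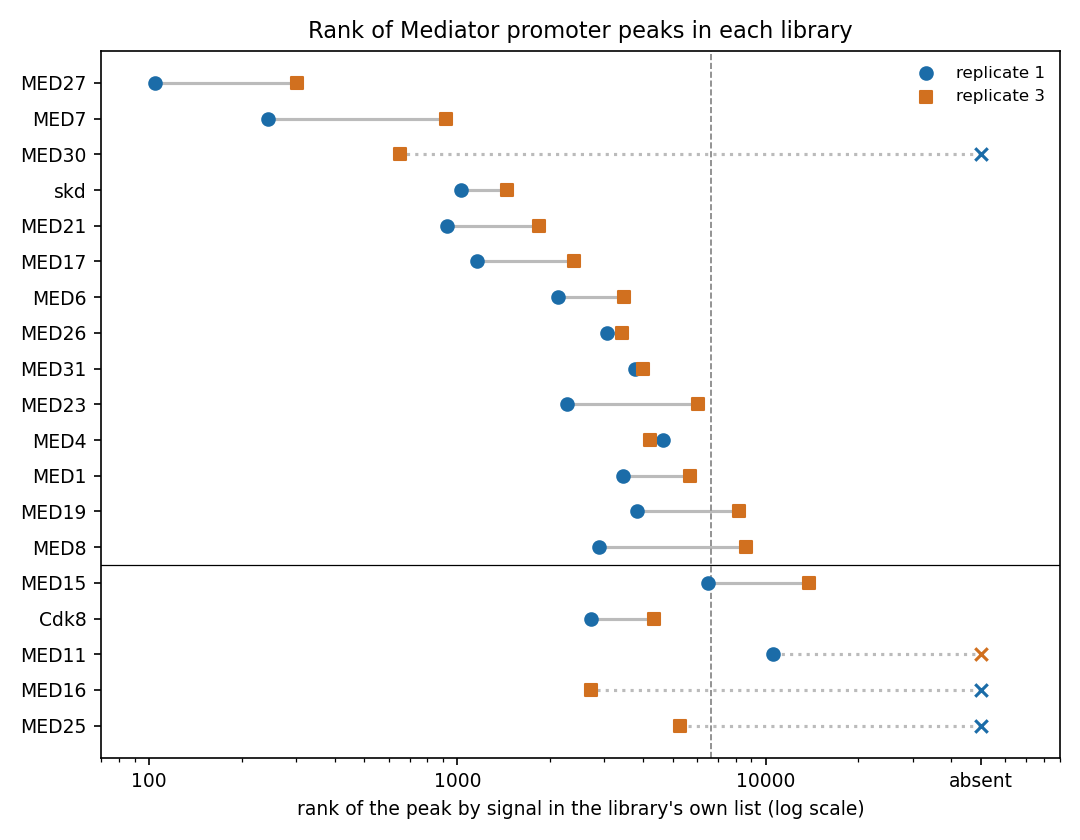
For each Mediator gene with a promoter peak, the horizontal axis gives the rank of the peak by signal in the list of replicate 1 (circles) and of replicate 3 (squares), on a log scale, with crosses at the right for no peak. Genes above the horizontal line are bound in the optimal list, in order of score; the dashed line marks rank 6636. MED27 lies at ranks 105 and 302, MED30 is absent from replicate 1, and Cdk8, below the line, lies at 2707 and 4356.

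Summits sat just upstream of the gene at most bound Mediator genes. For 13 of 14 the summit was upstream of the nearest TSS of the gene, against 88.9% of all bound genes, and the median distance was 73.0 bp, against 141 bp over all bound genes. The closest upstream summits were those of MED23 at 13 bp, MED26 at 33 bp, MED17 at 35 bp, MED21 at 49 bp and MED19 at 51 bp. MED1, MED8, MED31, MED7 and MED4 followed at 70, 76, 91, 115 and 140 bp, and MED27, MED30 and skd were farthest at 171, 213 and 455 bp. The exception in direction was MED6, with its summit 11 bp inside the transcript, in the 5' untranslated region. This is measured from the nearest of its 5 start sites. The replicate 1 summit was also 11 bp inside, but the replicate 3 summit lay 16 bp upstream of that TSS. MED26, on chromosome 4, had 2 optimal summits within 500 bp of a TSS, of signal 198 and 112, and both lay in an intron of its longer transcript. The gene body of skd held 3 further optimal summits in introns, at least 14668 bp from its start sites, the highest with signal 293 (73.6 in replicate 1 and 217 in replicate 3). No other Mediator gene had an optimal summit in its body away from the promoter.

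Many of these promoters are shared with a second gene. Of the 29 Mediator genes, 21 (72.4%) form a divergent pair, with an opposite-strand neighbour that starts within 1000 bp and runs the other way, against 36.2% of all protein-coding genes. Of those 21, 11 were bound, against 36.3% of all genes with such a partner. The other 8 had no TSS of another protein-coding gene within 1000 bp, and 3 of them were bound, against 13.8% of all such genes. These 3 were MED4, MED21 and MED26, all of the middle module. Start sites of noncoding genes near them were not considered. The isolated and unbound genes were MED11, MED14, MED24, kto and Cdk8.

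At 9 of the 14 bound genes the summit was also within 500 bp of a TSS of another protein-coding gene, against 52.4% of all bound genes, so a peak cannot be assigned to 1 gene of the pair from its position alone. The summit lay nearer to the Mediator gene at MED7 (115 bp, against 163 bp for Cap-H2, a condensin II subunit), MED17 (35 bp, against 330 bp for CG12321), MED19 (51 bp, against 364 bp for CG7430), MED8 (76 bp, against 388 bp for CG8929) and MED23 (13 bp, against 58 bp for Gmer). It lay nearer to the neighbour at MED27 (171 bp, against 107 bp for elm), MED30 (213 bp, against 61 bp for Rev1, a translesion DNA polymerase), MED31 (91 bp, against 34 bp for CG9775) and skd (455 bp, against 26 bp for Pdss2, an enzyme of ubiquinone side chain synthesis). MED31 also shares its annotated start with slx1. Thus MED27, MED30 and skd, 3 of the 4 genes with the highest scores, had their summits nearer to the neighbour. With a window of 250 bp around the TSS skd was no longer bound, and the other 13 genes were.

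**Figure D4:**
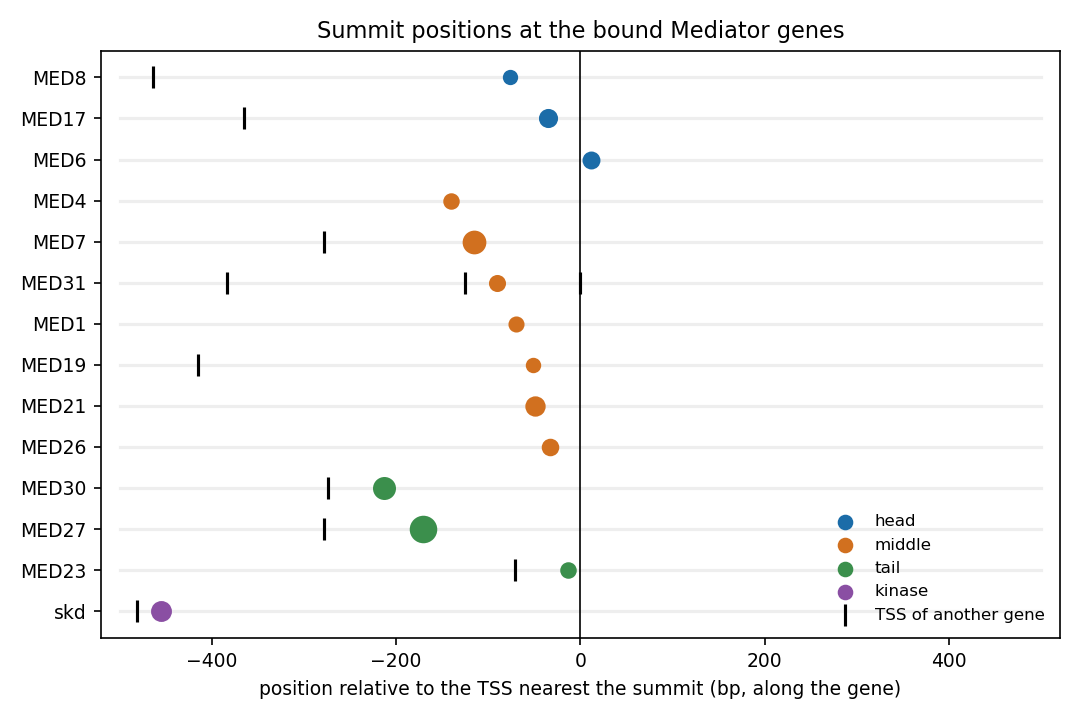
Each row is a bound Mediator gene, coloured by module; the horizontal axis gives the position in bp relative to the gene's TSS nearest the summit (negative is upstream), the point marks the optimal summit with an area that grows with its signal, and black ticks mark the TSSs of other genes within 500 bp. The summits of MED30, MED27 and skd lie 213, 171 and 455 bp upstream and closer to the neighbour's tick.

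The arms differed little as background, apart from chromosome 4. On 3L, 6 of 12 Mediator genes were bound (22.5% of all its genes), on 3R 5 of 8 (22.2%), on 2R 2 of 4 (19.6%), on 2L 0 of 2 (20.7%), on X 0 of 2 (24.2%), and the 1 gene on chromosome 4, MED26, was bound, where 56.2% of all genes were.

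Promoter sequence was read from 250 bases before to 50 after the 5'-most TSS of each gene on dm6 and searched on both strands. The DRE was present in 7 Mediator promoters (24.1%), against 9.36% of all promoters, and the core of Ohler motif 1, GGTCACAC, in 9 (31.0%), against 7.70%. GTATTTT, part of Ohler motif 6, stood in 10 (34.5%), against 16.3%. TATAAA was found in 15 (51.7%), against 45.8%, CAGCTG in 5 (17.2%), against 17.7%, the GAGA element GAGAG in 6 (20.7%), against 29.7%, and the initiator form TCAGTT in 2 (6.90%), against 26.1%. These are shares of letters in windows of 300 bases, with no test. A match was counted at any position, so TATAAA or TCAGTT here need not be a working TATA box or initiator. The 2 TCAGTT matches began 133 bp (MED8) and 134 bp (MED22) upstream, away from the TSS. The low share of TCAGTT was not seen around the summits: within 150 bp to either side it was in 3 of the 14 bound Mediator genes (21.4%), against 17.7% of all bound genes. Those windows are not centred on the TSS, so they do not show whether an initiator stands there.

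The DRE and motif 1 stood in bound and in unbound Mediator genes. Together they covered 15 of the 29 promoters, and 5 of those 15 genes were bound (MED7, MED8, MED17, MED19 and MED23), against 33.2% of all genes with either element. Of the 14 Mediator genes with neither, 9 were bound, against 19.8% of all genes with neither; they include MED27, MED30, skd and MED21, with 4 of the 5 highest scores. MED26 counts among these 9, since the DRE at its summit lies outside the window of its 5'-most TSS. The summits of skd and MED6 lay outside that window too, and neither element stood within 150 bp of them. The DRE was present in 3 bound genes (MED7, MED8 and MED17) and 4 unbound ones (MED9, MED18, MED25 and MED28). Of all genes with a DRE, 34.0% were bound. The motif 1 core was present in 3 bound genes (MED8, MED19 and MED23) and 6 unbound ones (MED10, MED11, MED15, MED20, MED22 and MED24). Of all genes with that core, 31.7% were bound. MED8 held both elements.

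**Figure D5:**
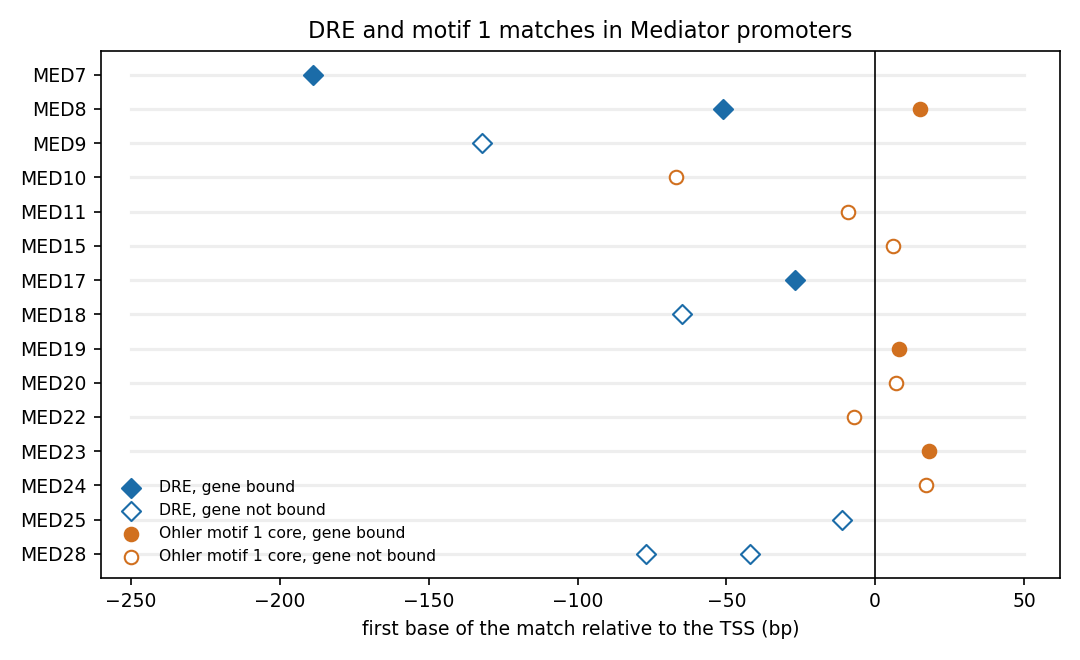
Rows are the 15 Mediator genes with a DRE (diamonds) or motif 1 core (circles) in the promoter window, and the horizontal axis gives the first base of the match relative to the 5'-most TSS in bp; filled symbols are bound genes and open symbols unbound ones. Motif 1 matches gather at the TSS, except in MED10 at 67 bp upstream, while DRE matches are spread between 189 and 11 bp upstream.

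Motif 1 sat at the start site itself in these genes. In 8 of the 9 promoters the core began within 20 bp of the TSS (88.9%), against 47.7% of the 1074 promoters with the core in the genome, and 8 of the 9 carried the longer form GGTCACACTG, against 48.1%. GTATTTT stood in the same promoter in 6 of the 9 (66.7%), against 30.4%. The next sequences show this common position and form in 6 genes, of which MED19 was bound and the others were not. Bound MED8 and MED23, not shown, also had the core close to the TSS, beginning 15 and 18 bp after it. MED23 had the longer form and MED8 did not. The 6 lines are therefore examples and do not give the share of bound genes. They are 61 bases centred on the TSS, along the gene, on dm6, at chr3L:18745826-18745886 (plus strand), chr2L:472983-473043 (plus strand), chr3L:17846471-17846531 (minus strand), chr2L:8072818-8072878 (minus strand), chrX:928109-928169 (plus strand) and chr3L:8191240-8191300 (plus strand). Capitals mark the motif 1 core, and any TATA box, GAGA or motif 6 match on either strand.
MED11: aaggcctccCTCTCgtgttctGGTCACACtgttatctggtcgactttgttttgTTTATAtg
MED15: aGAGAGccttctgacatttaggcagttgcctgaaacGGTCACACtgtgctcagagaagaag
MED19: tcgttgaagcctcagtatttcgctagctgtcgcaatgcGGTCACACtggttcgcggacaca
MED20: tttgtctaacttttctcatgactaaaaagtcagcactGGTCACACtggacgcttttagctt
MED22: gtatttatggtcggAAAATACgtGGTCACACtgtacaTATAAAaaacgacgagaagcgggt
MED24: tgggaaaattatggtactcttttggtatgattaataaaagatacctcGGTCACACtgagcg
In each line the core is followed by tg and begins within 20 bp of the TSS, which is the middle base.

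A DRE without a peak is shown for MED18 and MED28, from 90 bases before to 10 after the TSS, at chrX:1865819-1865919 (plus strand) and chr3R:25476913-25477013 (plus strand) on dm6, with the DRE in capitals.
MED18: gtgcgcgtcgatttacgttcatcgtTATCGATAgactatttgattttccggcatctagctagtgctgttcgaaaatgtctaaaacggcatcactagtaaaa
MED28: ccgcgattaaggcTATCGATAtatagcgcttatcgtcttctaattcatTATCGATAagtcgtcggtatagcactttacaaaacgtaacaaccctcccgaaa
MED28 has 2 matches, and neither gene had a summit within 500 bp in any list. The nearest optimal summit was 4032 bp from MED18 and 3698 bp from MED28.

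Other genes of the transcription machinery were chosen as 5 lists for comparison. Of 12 RNA polymerase II genes 5 were bound (41.7%), of 15 TFIID genes 3, of 7 genes of TFIIA, TFIIB, TFIIE and TFIIF 2 (28.6%), of 10 TFIIH genes 3 and of 5 genes of the elongation kinases 2, which is 15 of 49 in all (30.6%). All genes had 21.9% bound and the Mediator genes 48.3%, with no test of the difference. The highest in each list were Polr2F, a shared polymerase subunit, with 706, Taf4 with 610, TfIIB with 406, Ssl1 with 1393 and CycK with 292. Ssl1 shares its summit with Chro, and 1393 was above the 763 of MED27, while no other protein-coding gene had a TSS within 500 bp of the Polr2F summit. ix, which encodes Med29 and has no MED symbol in the annotation, was bound with a signal of 191 (82.3 in replicate 1 and 111 in replicate 3), 423 bp upstream of its TSS, at a summit shared with san. It is not counted above.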

How the data were processed

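The authors deposited peak lists on dm6 for each library (29999 peaks each), for the pooled alignments (29999) and, after comparing replicates, an optimal list (6636, of which 6614 on the arms). The signal of a peak and its −log10 q-value are the authors' own, per the deposited lists; the caller, the aligner and the threshold, not given in the sources used here, stay unnamed, and no scaling between lists is stated. Each library's text, as deposited, says that a control alignment entered the calling. dm3 lists were not used, and depth is unknown.

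Computed here were distances from summits to start sites of protein-coding transcripts (Ensembl release 115, BDGP 6.54), with 1-based dm6 coordinates. A library's value is the highest of its peaks sharing at least 1 bp with the optimal peak or, at unbound genes, its highest peak with a summit within 500 bp of a TSS. Sequences were read from the Release 6 genome of RefSeq at Ensembl start sites, in place of a promoter table. Replicates 1 and 3 form 1 group, so no between-group test was made, and the 2 libraries came from separate biosamples, per the labels. Every Mediator gene is named; from the other lists, the highest bound gene, neighbours that share a summit, and ix. Genes, modules, lists and motifs were chosen with earlier results of these data known. Alternatives changed the window, the list, the interval, the start site, the modules and the libraries. Scripts used Python 3.11.15, pandas 2.3.3, numpy 2.4.6 and scipy 1.17.1, and were tested on simulated summits and motifs.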

Additional observations from a re-analysis of the deposited data

How the results depend on the processing

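Leaving out 1 library, by taking as many top peaks of the other as the optimal list holds, gave 15 bound Mediator genes each time in place of 14, but not the same ones. Replicate 1 alone added MED15 and Cdk8 and lost MED30; replicate 3 alone added MED16, MED25 and Cdk8 and lost MED8 and MED19. Bound tail genes then numbered 3 to 5, kinase module genes 2 either way in place of 1, and the median score ran between 74.2 and 117, over 16 and 18 scored genes of lists with no stated common scale. The share of all genes bound ran between 21.8% and 23.6%. No paired analysis was possible because both libraries belong to 1 group.

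With the top 3318 optimal peaks, 8 Mediator genes were bound, 3 of them in the middle module, and 14.2% of all genes. A window of 250 bp gave 13 Mediator genes, 0 in the kinase module, and 18.1% of all genes; 1000 bp gave 15 and 25.0%. Interval overlap gave 15 and 23.4%, the 5'-most TSS alone 14 and 19.8%, and genes with no other TSS within 1000 bp 3 of 8 and 13.8%. The older module assignment, with 10 head and 6 tail genes, put 5 bound genes in the head and 1 in the tail. The median score over bound genes alone was 207. The cause of these changes was not tested. Among the other lists the total rose from 15 of 49 to 21 in replicate 1 alone and 18 in replicate 3 alone. The Mediator genes had 15 of 29 with either library, so the gap between them and these lists was smaller there. Under the remaining alternatives the total lay between 13 and 15. TFIID had 6 bound genes in replicate 1 alone, against 3, and the list of TFIIA, TFIIB, TFIIE and TFIIF 1 with the top 3318 peaks, against 2. With the 14 bound genes in place of all 29, and 150 bp to either side of the summit in place of the promoter window, the 7 motif shares moved within their counting error. That error is wide for 14 genes, which are also part of the 29, so this does not show that the shares are stable. TCAGTT moved most, to 21.4% in place of 6.90%. The counts of peaks found in each library stayed within 1.5 times.

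Unknown depth limits what an absent peak means: no summit says only that none was listed.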

Other observations

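Several Mediator genes with no summit within 500 bp in any list have a second start site very close by. CycC and UQCR-C1, a complex III subunit, start 26 bp apart, MED10 and PDCD-5 46 bp, MED20 and Trf, a relative of the TATA-binding protein, 47 bp, MED18 and Gcna 74 bp, and MED28 and CG4553 88 bp. MED9 and CG42518 are annotated with the same start. These close pairs stand beside bound MED23 and Gmer, 71 bp apart, and bound MED31, which has the same start as slx1. Bound MED6 starts 19 bp from Naa80, but its summit was not within 500 bp of a TSS of Naa80. Pairs of like spacing were thus found with and without a peak.

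Relaxed pooled summits below the optimal list also lay inside some gene bodies away from the promoter: MED15 had one of 86.5, MED19 of 51.2 and MED1 of 30.1, and MED26 had 3, the highest 32.6. skd had 9 pooled summits there, of which 3 were in the optimal list.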
